A study of Mus musculus with 3 samples.

Results

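The 6 genes described here, *Car6*, *Car2*, *Car12*, *Car4*, *Car8* and *Car13*, were taken by name from the 32285 genes counted in the mouse lacrimal gland (LG), and all 6 were found. They belong to the carbonic anhydrase family, of which 16 genes were listed in the count tables. Cells of the LGs of C57BL/6J mice aged 2 months were dissociated and profiled by single-cell RNA sequencing of transcript 3′ ends, in which each captured molecule is counted once by a unique molecular identifier (UMI). There were 3 libraries, a female library and male libraries 1 and 2, each prepared from the pooled glands of 3 mice, with no treatment and no genetic change. The female library was made at one sequencing core and both male libraries at another core on a different day, so a difference by sex cannot be told apart from one by core or day. Single mice within a pool cannot be separated either.

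Carbonic anhydrases interconvert carbon dioxide and water with bicarbonate and a proton, and secretory glands use the bicarbonate and protons so formed to set the ion content and pH of their fluid. The family divides by where the enzyme works. *Car6* encodes the secreted enzyme found in tears and saliva, *Car2* and *Car13* encode cytosolic enzymes, *Car12* and *Car4* encode enzymes held at the cell surface with the active site outside the cell, and *Car8* encodes a related protein that lacks the catalytic activity.

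After filtering, 18344 cells remained (7652 female, 5295 and 5397 from male libraries 1 and 2), with 55390678, 37641576 and 41269825 UMIs. The median depth was 3252, 1884 and 1788 UMIs per cell in the same order, so the female library was the deepest. *Xist* and the Y-linked genes matched the labelled sex of all 3 libraries, and pairs of libraries shared 8 to 13 cell barcodes. Cells were clustered without the carbonic anhydrase genes and each cluster was named from listed markers, with "-like" for a name given in that way. Every listed marker was higher in its class than in the other cells in all 3 libraries, except for 6 of 7 in mature acinar-like and 3 of 5 in other endothelial-like cells. The same markers gave the names, so this is not a separate check of them. The acinar class named from *Dnase1*, *Kcnn4*, *Lrrc26*, *Folr1*, *Bglap3* and *Mup4* is the one the study names after *Car6*. It is called *Kcnn4*-type here because *Car6* was not among the naming markers or the clustered genes. Since those markers are the study's own for its *Car6*-named cluster in these libraries, a high *Car6* in the class was built in by its choice. A lower *Car6* in a class set against cells that include it was in part built in too, and is counted below with that limit. The *Tfrc*-type acinar-like cells, the *Ltf*-type epithelial cells, the duct-like cells, the myoepithelial (MEC)-like cells and the stromal and immune classes were named in the same way, and unnamed clusters (431 epithelial and 844 other cells) were kept out of the classes. Levels are given as CPM, the UMIs of a gene per 1000000 UMIs summed over the cells of a class in a library. They are compared between classes for each gene and not between genes, and with pooled cells a lower level cannot be divided into fewer expressing cells and less RNA per cell except where shares of cells are given.

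On the GRCm38 (mm10) build and the GENCODE annotation, *Car6* lies at chr4:150187015-150201332 on the minus strand and *Car8* at chr4:8143362-8239041 on the minus strand. *Car12* lies at chr9:66713686-66766845 and *Car4* at chr11:84957786-84966044, both on the plus strand. *Car13* (chr3:14641727-14663002) and *Car2* (chr3:14886273-14900770), both on the plus strand, bound a run of 4 carbonic anhydrase genes within 259 kb, with *Car1* and *Car3* between them. Of these neighbors, *Car1* had no UMI in any kept cell and *Car3* had 1, while *Car13* had 358 and *Car2* had 454. The 250 bases before the annotated start of the membrane-bound members are shown because their levels peaked in different classes, duct-like cells for *Car12* and capillary-like cells for *Car4*. They come from RefSeq on GRCm38.p6, 5′ to 3′ on the plus strand, at chr9:66713436-66713685 for *Car12* and chr11:84957504-84957753 for *Car4*, with the match to a GC box core in capitals.
Car12: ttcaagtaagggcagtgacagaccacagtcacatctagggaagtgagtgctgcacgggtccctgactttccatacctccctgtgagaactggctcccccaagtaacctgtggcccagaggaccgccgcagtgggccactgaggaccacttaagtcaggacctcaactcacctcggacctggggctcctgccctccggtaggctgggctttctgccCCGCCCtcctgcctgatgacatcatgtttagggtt
Car4: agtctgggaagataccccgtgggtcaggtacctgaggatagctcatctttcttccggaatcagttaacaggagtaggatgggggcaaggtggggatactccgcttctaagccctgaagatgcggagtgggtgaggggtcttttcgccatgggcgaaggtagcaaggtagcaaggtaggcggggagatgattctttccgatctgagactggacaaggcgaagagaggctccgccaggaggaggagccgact
A TATA box core with the letters TATAAA was searched on both strands. A GC box core with the letters GGGCGG was searched on both strands too, and appears above as its reverse complement. *Car12* held 1 GC box core that began 35 bases before the start, and *Car4* held neither motif. Among all 32851 windows of this length, 12.4% held a TATA box core and 32.7% a GC box core. *Car12* and *Car4* held 6 and 11 CpG dinucleotides against a median of 6 over all windows, so neither window stood out by these letters. The *Car6* window overlaps transcribed sequence and is not shown, and *Car2*, *Car8* and *Car13* are named only.

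The 6 genes differed widely in how much of their RNA was captured and in which cells held it. *Car6* gave 115687 UMIs, with at least 1 UMI in 63.3% of all kept cells. *Car12* gave 1788 UMIs in 6.02% of cells, *Car2* 454 in 1.61%, *Car13* 358 in 1.76%, *Car8* 150 in 0.660% and *Car4* 104 in 0.480%. Pooled over the libraries, *Kcnn4*-type acinar-like cells held 64.4% of those of *Car6*, duct-like cells 70.4% of *Car12* and 54.5% of *Car13*, lymphoid-like cells 48.9% of *Car2*, capillary-like cells 92.3% of *Car4* and fibroblast-like cells 58.7% of *Car8*. The female library gave most of these UMIs, and the male libraries differed for *Car12*, *Car2*, *Car8* and *Car13*. Duct-like cells held 81.5% of *Car12* UMIs in the female library but 30.9 and 29.2% in the male libraries, where *Ltf*-type cells held 57.5 and 59.0%. Lymphoid-like cells held 57.1, 22.7 and 24.4% of *Car2* UMIs, and *Ltf*-type cells held 60.6 and 44.4% in the male libraries. Of the 14 *Car8* UMIs of male library 1, *Ltf*-type cells held 7 and fibroblast-like cells 5. Duct-like cells held 61.8% of *Car13* UMIs in the female library but 28.6 and 34.1% in the male libraries, where MEC-like cells held 28.6 and 27.3%. These shares also depend on how many cells of a class were kept. Duct-like cells numbered 1054, 328 and 272 in the female library and male libraries 1 and 2, and *Ltf*-type cells 80, 396 and 378. The same 6 classes had the highest mean CPM whether or not tear-product genes were counted in the totals. The plot of levels by class shows these differences in each library.

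**Figure D1:**
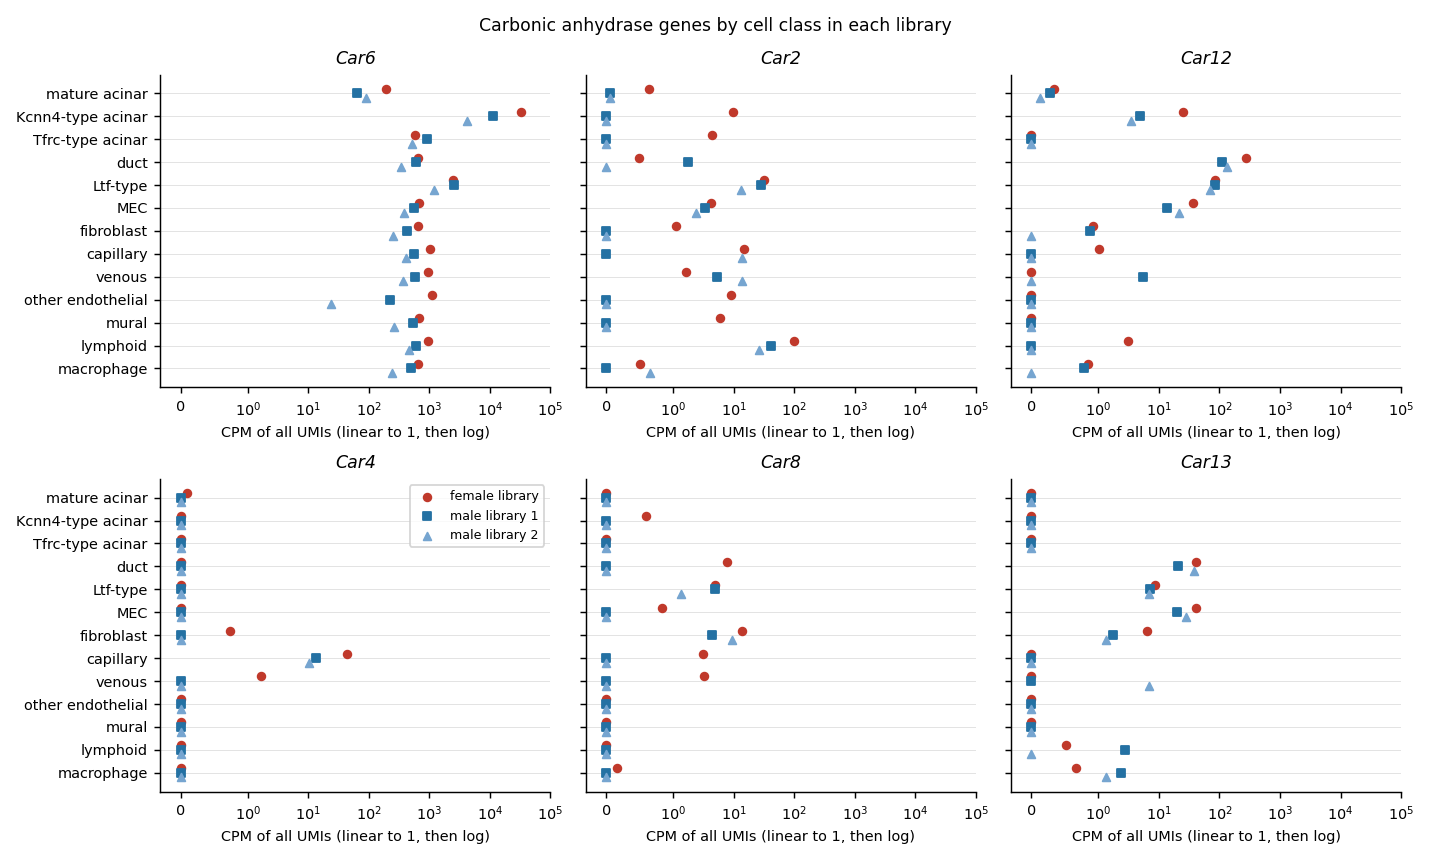
Level of each carbonic anhydrase gene (x axis, CPM of all UMIs, linear up to 1 and logarithmic above) in 13 cell classes (y axis), with 1 point per library. *Car6* has points above 0 in all classes and its highest in *Kcnn4*-type acinar-like cells (4154 to 32597 CPM), *Car4* is nearly confined to capillary-like cells (10.2 to 44.4 CPM), and *Car13* is at 0 in the 3 acinar classes.

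Differences were tested with edgeR's quasi-likelihood test on UMIs summed per library and arm, with the library as a block, and a gene was called where its p, adjusted over all genes tested by the Benjamini-Hochberg method, fell under 0.05. Fold changes are relative to the genes that the arms share, since tear-product transcripts made up a large and unequal part of each class. Scaling to total UMIs instead moved the median log2 fold change of all genes by between -2.20 and 2.37, depending on the comparison, and where that scaling turned a direction or ended a call it is stated beside the result. The 3 libraries are separate pools. With the library as a block, differences in level between libraries are set aside. The p-values rest on how the difference between the arms varied over the libraries. The test also draws on the spread of all genes tested, so a very small p does not measure the spread of that gene alone.

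*Car6*, the secreted enzyme, was by far the highest in *Kcnn4*-type acinar-like cells (416 cells). It reached 32597, 11446 and 4154 CPM in the female and the first and second male libraries, the order used for all such values, against 198, 73.0 and 93.8 CPM in the other acinar-like cells. The class was higher in all 3 libraries and the arms did not overlap. The log2 fold change was 6.34 ± 0.45 (SE, n = 3 libraries). It is given as a description with no test, since the naming markers came from the study's *Car6*-named cluster. The other member that passed the filter on low counts in this class, *Car12*, was called higher, where 4.14% of 8579 genes were called, 3.36% higher and 0.781% lower. After each cell was thinned to 1000 UMIs, 51.2, 59.8 and 38.3% of *Kcnn4*-type cells had 10 or more *Car6* UMIs. Among macrophage-like cells, which are not known to secrete it, none of 1470, 665 and 554 cells did, a count of 0 that allows up to 0.204, 0.451 and 0.542%.

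Within the *Kcnn4*-type class, *Car6* was unevenly spread over its clusters. A cluster of 168 cells led by *Chia1* and *Amy1*, which encode a chitinase and an amylase, had 41418, 31257 and 33868 CPM of *Car6*, and held 69.2% of the UMIs of the class in 40.4% of its cells. The levels in the 3 libraries lay close together there. In thinned cells its median was 27 of 1000 UMIs, and 84.5% of cells had 10 or more. The other cluster, of 248 cells led by *Dcpp1* and *Gm44410*, had 21328, 5534 and 1596 CPM, with a thinned median of 1 and 24.4% of cells at 10 or more. The *Chia1* and *Amy1* cluster also made up 56.1, 23.0 and 7.93% of the UMIs of the class in the 3 libraries. The spread of *Car6* between libraries in the whole class (16066 ± 14773 CPM, SD, n = 3) thus lay both in the level of the second cluster and in the mix of the clusters. Both clusters were singled out after their values were seen, and these values carry no test. The 3 genes whose levels over 42 class and library sums were most like those of *Car6* were *Gm44410* (Pearson r = 0.75), *Mup5* (0.69) and *Kcnn4* (0.68), the last being a marker used to name the class.

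**Figure D2:**
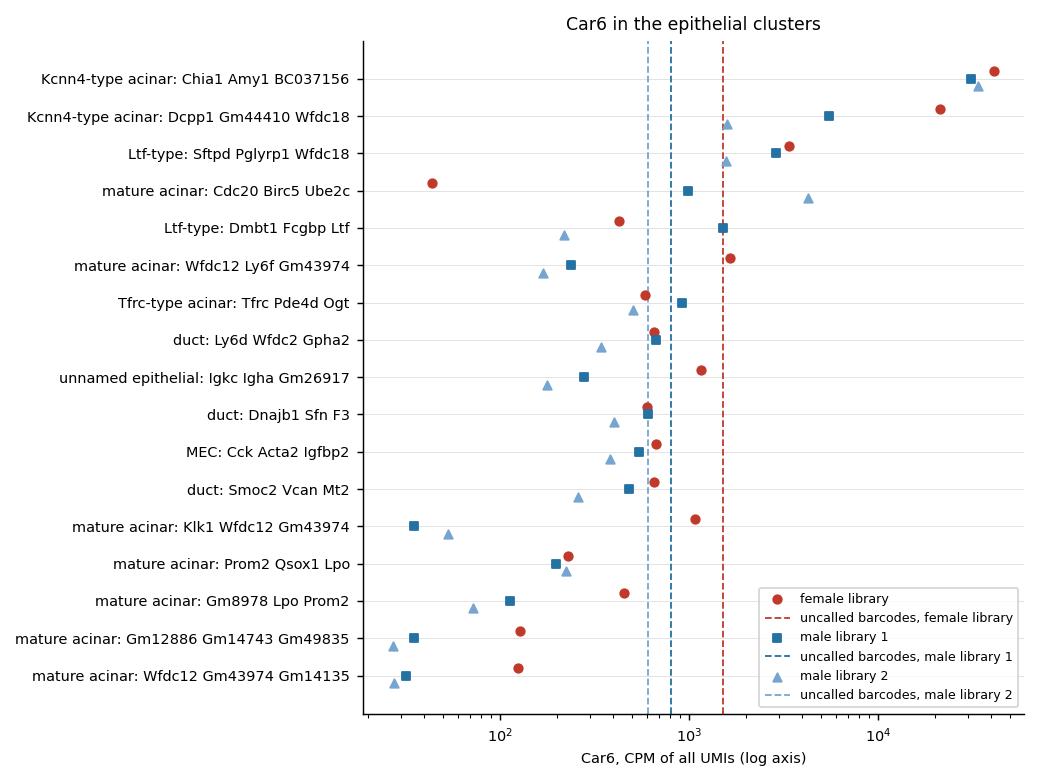
*Car6* level (x axis, CPM of all UMIs, log scale) in each epithelial cluster with at least 5 cells in every library (y axis, class and leading genes), with 1 point per library. Dashed lines give the level in barcodes that were not called as cells, 1522, 811 and 609 CPM, and the *Chia1* and *Amy1* cluster lies at 31257 to 41418 CPM in all 3 libraries.

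The remaining acinar-like cells carried little *Car6*. In mature acinar-like cells (3859 cells), which held 90286998 of the UMIs, *Car6* stood at 195, 64.8 and 90.7 CPM, the lowest mean of the 13 classes (in male library 2 other endothelial-like cells were lower, at 23.7 CPM), against 7023, 4183 and 2316 CPM in the other epithelial cells. The log2 fold change was -3.09 ± 0.35 (adjusted p = 0.000402). *Kcnn4*-type cells, whose high *Car6* was built in, are among those other epithelial cells and gave 54390, 11750 and 8373 *Car6* UMIs. The *Car6* p is therefore not read as support. All 4 members tested were called lower, *Car6* with this limit, where 50.0% of 11208 genes were called, 21.9% higher and 28.1% lower. *Car2* was at 0.646, 0.0690 and 0.0627 CPM against 8.72, 11.1 and 4.62 (log2 fold change -2.72 ± 0.70, adjusted p = 0.0144), and *Car12* at 0.340, 0.276 and 0.126 CPM against 155, 50.6 and 38.0 (-5.94 ± 0.24, adjusted p = 9.93e-06). *Car13* had no UMI in any mature acinar-like cell, at least 98.4-fold lower than in the other epithelial cells with 3 UMIs over the group as the floor and the scale of the fit (527-fold by CPM; adjusted p = 0.000164). The *Car2* call was lost with a mitochondrial limit of 5% and with a doubled doublet rate.

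*Tfrc*-type acinar-like cells had 584, 926 and 508 CPM of *Car6* against 1935, 454 and 332 CPM in the other acinar-like cells, so the class was lower in the female library and higher in both male libraries on this scale. The fitted difference was -1.31 ± 0.37 (adjusted p = 0.00191), the 1 member tested, where 37.5% of 8580 genes were called, 29.9% higher and 7.59% lower. The call was lost in 6 of the 14 alternatives, and the sign turned with total UMIs (0.02, adjusted p = 0.961). The other acinar-like cells include the *Kcnn4*-type, so this *Car6* difference rests in part on the choice of naming markers. A small cluster of 35 mature acinar-like cells led by the cell cycle genes *Cdc20*, *Birc5* and *Ube2c* showed 43.9, 993 and 4267 CPM of *Car6*. Only 3 of its 35 thinned cells had any *Car6* UMI, and 1 cell in each male library had 10 or more.

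*Car6* UMIs were found in every other class too. In duct-like, MEC-like, stromal and immune classes its mean level lay between 437 CPM (fibroblast-like) and 669 CPM (lymphoid-like), and neighboring classes in this order overlapped over the 3 libraries, with *Tfrc*-type cells (673 CPM) among them. Barcodes that were not called as cells also held it. In those of 10 to 100 UMIs, *Car6* stood at 853, 1476 and 1435 CPM (58, 342 and 248 UMIs), and in those of more than 500 and up to 2000 UMIs, which held most uncalled UMIs, at 1522, 811 and 609 CPM. If all tear-product UMIs of a class came with such RNA, it would bring 482, 483 and 361 CPM of *Car6* into duct-like cells, where 639, 591 and 342 CPM were measured. Macrophage-like cells would receive 595, 448 and 432 CPM and had 646, 489 and 239. The measured level was 0.553 to 1.82 times this estimate in duct-like, MEC-like, fibroblast-like, capillary-like, venous-like, mural-like, lymphoid-like and macrophage-like cells, near the level of free RNA. These barcodes were chosen for the estimate after seeing the data. With the barcodes of 10 to 100 UMIs in their place, the ratio in the same classes ran from 0.217 to 2.87, above 1 in the female library and below 1 in both male libraries. *Car6* in these 8 classes is therefore not read as expression.

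*Ltf*-type cells had a higher ratio than these 8 classes in each library. They had 2494, 2529 and 1176 CPM of *Car6*, which was 2.25, 5.67 and 2.93 times the free RNA estimate, and 3.55, 2.87 and 1.15 times that from barcodes of 10 to 100 UMIs. Most of it lay in a cluster of 622 cells led by *Sftpd* and *Pglyrp1*, a surfactant protein and a peptidoglycan recognition protein, with 3412, 2886 and 1576 CPM. Few of its cells carried this level. After thinning, 47.5, 46.4 and 35.1% of the cluster had any *Car6* UMI, somewhat above the 41.5, 42.9 and 29.0% of duct-like cells in each library. The thinned median was 0 of 1000 UMIs and the highest 68, and 7.04% of its cells had 10 or more against none of the duct-like cells. Against duct-like cells *Car6* was higher in *Ltf*-type cells (log2 fold change 2.42 ± 0.27, adjusted p = 1.50e-06). Against all other epithelial cells, which include the *Kcnn4*-type, it did not pass (0.04 ± 0.21, adjusted p = 0.924), but was higher with total UMIs (1.60, adjusted p = 0.000695). The plot of measured against free RNA levels sets *Ltf*-type cells beside the other classes.

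**Figure D3:**
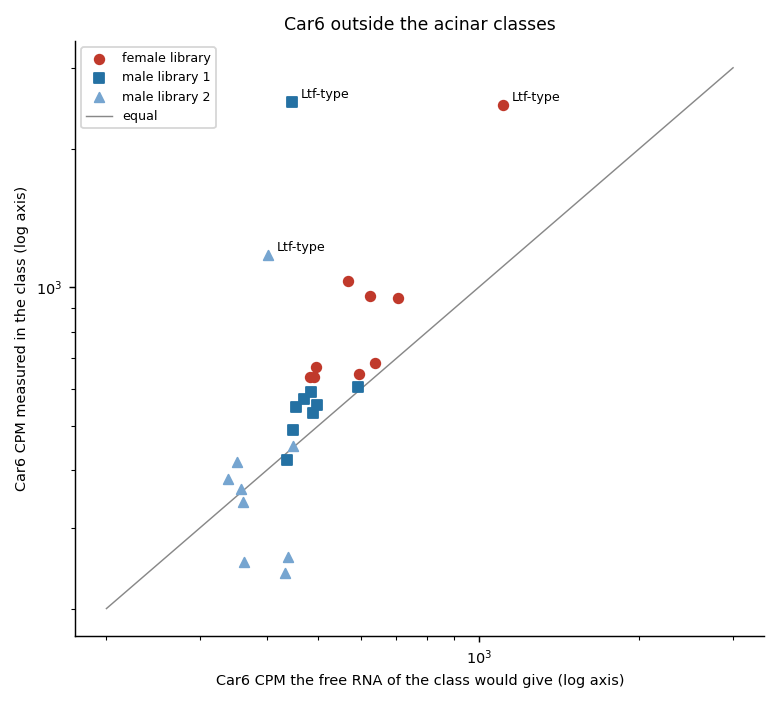
*Car6* level measured in 9 classes outside the acinar cells (y axis, CPM, log scale) against the level that free RNA would bring in if it carried all their tear-product UMIs (x axis, CPM, log scale), with 1 point per class and library and a line of equal values. The 3 *Ltf*-type points lie 2.25 to 5.67 times above the line, and the other classes lie at 0.553 to 1.82 times. Free RNA was read from uncalled barcodes of more than 500 and up to 2000 UMIs.

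The calls of lower *Car6* outside the acinar cells followed. Duct-like cells were lower than the other epithelial cells by a log2 fold change of -2.84 ± 0.33 (adjusted p = 3.89e-06), and MEC-like cells by -2.77 ± 0.26 (adjusted p = 0.000151). Against all other cells, the values were -2.42 ± 0.17 in fibroblast-like (adjusted p = 3.29e-06), -1.78 ± 0.14 in endothelial-like (adjusted p = 4.00e-09), -1.58 ± 0.25 in mural-like (adjusted p = 6.02e-09), -1.26 ± 0.14 in lymphoid-like (adjusted p = 8.05e-18) and -1.74 ± 0.16 in macrophage-like cells (adjusted p = 1.48e-05). All of these directions held with total UMIs, but the calls in MEC-like, endothelial-like, mural-like and lymphoid-like cells were lost with it. Both arms of these comparisons contain the free RNA described above. The cells on the other side include the *Kcnn4*-type, whose high *Car6* was built in, so these p-values are not read as support. In lymphoid-like cells the CPM difference was -527 in the female library and had the opposite sign in both male libraries.

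*Car12*, a membrane enzyme known for bicarbonate handling at the surface of duct epithelia, was highest in duct-like cells (1654 cells). Its levels there were 279, 111 and 134 CPM, against 6.88, 4.34 and 3.47 CPM in the other epithelial cells, and the arms did not overlap. Duct-like cells were higher by a log2 fold change of 2.78 ± 0.18 (adjusted p = 1.13e-08), and the call held under all 14 alternatives. In this comparison all 4 members tested were called, *Car12* and *Car13* higher and *Car6* and *Car2* lower, where 36.6% of 10860 genes were called, 15.9% higher and 20.7% lower. Thinned to 1000 UMIs, 24.4, 12.0 and 12.9% of duct-like cells had a *Car12* UMI, and 0.0680, 0.150 and 0% of macrophage-like cells (the 0 allows up to 0.542%), at median depths before thinning of 3726, 1687 and 1308 against 3529, 1750 and 1438 UMIs. Uncalled barcodes of more than 500 and up to 2000 UMIs had at most 1.27 CPM.

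All 3 duct-like clusters carried *Car12*. It stood at 308, 132 and 117 CPM in the cluster led by *Ly6d* and *Wfdc2*, at 261, 105 and 177 CPM in that led by *Dnajb1* and *Sfn*, and at 238, 92.8 and 110 CPM in that led by *Smoc2* and *Vcan*. The *Smoc2* and *Vcan* cluster was the lowest in each library, and the difference was not tested. *Krt7*, a keratin used as a duct marker, had the pattern most like that of *Car12* (r = 0.98 over 42 class and library sums), followed by *Cbr2* (0.96) and *Serinc2* (0.96).

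*Ltf*-type cells came next, with 85.6, 84.9 and 70.7 CPM of *Car12*, below duct-like cells in every library. Against other epithelial cells *Car12* was higher (log2 fold change 2.21 ± 0.48, adjusted p = 0.0188), a call that was lost without the library block (adjusted p = 0.299). Against duct-like cells it was lower by a small margin (-0.54 ± 0.16, adjusted p = 0.0170), and 7 of 14 alternatives ended that call, total UMIs among them. MEC-like cells had 35.9, 13.4 and 21.3 CPM against 36.0, 6.07 and 4.67 in other epithelial cells. The fitted value of -1.42 ± 0.37 (adjusted p = 0.0195) was lost in 4 of 14 alternatives, and its sign turned with total UMIs (0.87, adjusted p = 0.0773).

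A smaller amount of *Car12* was present in *Kcnn4*-type acinar-like cells. It stood at 24.6, 4.87 and 3.47 CPM (41, 5 and 7 UMIs) against 0.337, 0.273 and 0.125 CPM in the other acinar-like cells. The class was higher in all 3 libraries, by a log2 fold change of 4.84 ± 0.49 (adjusted p = 1.07e-06), and the call held under all 14 alternatives. The class thus carried both a secreted and a membrane-bound member, while *Car13* had no UMI in it and *Car2* had 16, all in the female library. Outside the epithelium *Car12* was scarce, with 6 UMIs each in fibroblast-like, lymphoid-like and macrophage-like cells. It was lower than in all other cells in fibroblast-like (-6.13 ± 0.46, adjusted p = 5.17e-06), endothelial-like (-5.87 ± 0.56, adjusted p = 4.86e-08), lymphoid-like (-4.27 ± 0.53, adjusted p = 1.94e-14) and macrophage-like cells (-5.69 ± 0.44, adjusted p = 6.09e-06). Mural-like cells had no *Car12* UMI, at least 2.99-fold lower than the rest on the scale of the fit, and that call was lost with total UMIs (adjusted p = 0.0568).

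*Car13*, a cytosolic enzyme, marked the duct-like and MEC-like cells together. In duct-like cells it had 41.1, 20.8 and 38.5 CPM against 1.84, 0.681 and 0.610 CPM in the other epithelial cells, and the arms did not overlap. The fitted log2 difference was 2.60 ± 0.37 (adjusted p = 3.29e-05), with the call kept in all 14 alternatives. In MEC-like cells, the contractile cells around the acini, it had 40.9, 20.2 and 28.4 CPM against 4.91, 0.682 and 0.694. MEC-like cells were higher by a log2 fold change of 1.90 ± 0.45 (adjusted p = 0.0130, and 0.0592 without the library block). Of the 4 members tested in MEC-like cells, *Car13* was called higher, *Car6* and *Car12* lower, and *Car2* was not called (-1.12 ± 0.55, adjusted p = 0.163, and 1.11 with total UMIs), where 30.9% of 11136 genes were called, 14.1% higher and 16.8% lower. Duct-like and MEC-like levels of *Car13* overlapped.

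*Ltf*-type cells had less *Car13*, at 8.50, 7.13 and 6.74 CPM, and were lower than duct-like cells by -1.56 ± 0.33 on the log2 scale (adjusted p = 0.00130). All 4 members tested in this contrast of the epithelial classes were called, *Car6* and *Car2* higher and *Car12* and *Car13* lower in *Ltf*-type cells, where 31.5% of 7028 genes were called, 14.3% higher and 17.3% lower. *Car13* was lower than in all other cells in endothelial-like (1 UMI, -5.01 ± 0.99, adjusted p = 0.000352), lymphoid-like (2 UMIs, -3.38 ± 0.86, adjusted p = 0.000329) and macrophage-like cells (9 UMIs, -2.32 ± 0.72, adjusted p = 0.0231). Without the female library all 3 calls were lost, and the macrophage-like call was also lost with total UMIs (adjusted p = 0.165). The fibroblast-like value (-1.08 ± 0.39, adjusted p = 0.0493) was lost in 12 of 14 alternatives, and its sign turned with total UMIs (0.47, adjusted p = 0.352).

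Across the 42 class and library sums *Car13* and *Car12* moved together more than any other pair of the 6 genes (r = 0.80, against -0.16 to 0.26 for the other 14 pairs). These points share libraries, depth and free RNA, and the value is a description. The genes most like *Car13* were *Adgrl3* (r = 0.96), *Bhlhe22* (0.94) and *Trim29* (0.94). *Car2*, which neighbors *Car13* on chromosome 3, had r = -0.01 with it.

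**Figure D4:**
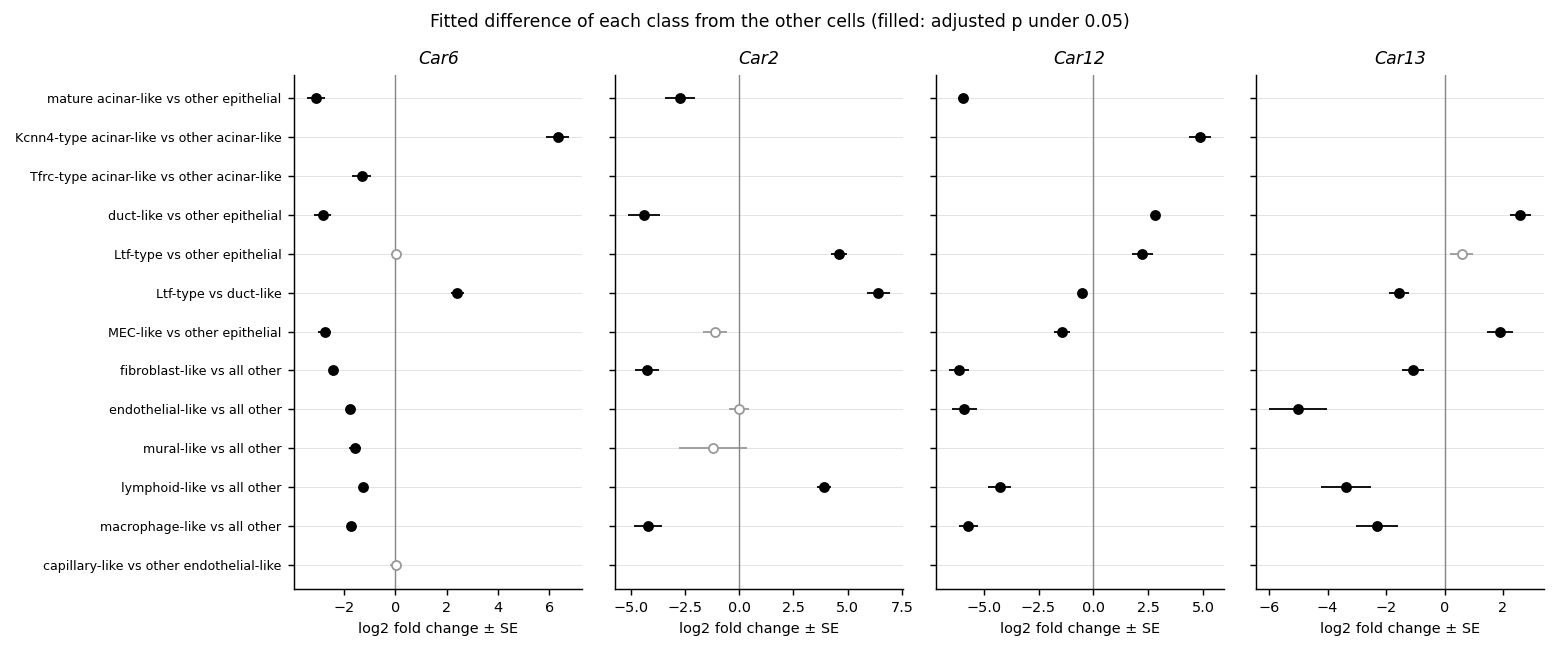
Fitted log2 fold change with its SE (x axis) of *Car6*, *Car2*, *Car12* and *Car13* in each comparison (y axis), with filled points where the adjusted p was under 0.05 and no point where an arm had no UMI or the gene was not tested. *Car6* reaches 6.34 in *Kcnn4*-type acinar-like cells, *Car2* 3.92 in lymphoid-like and 4.61 in *Ltf*-type cells, and *Car12* and *Car13* 2.78 and 2.60 in duct-like cells. The *Car6* point of *Kcnn4*-type cells is filled by the fit but is a description with no test.

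*Car2*, the widely expressed cytosolic enzyme, had its highest class mean outside the epithelium, in lymphoid-like cells. The library values of that class overlapped those of *Ltf*-type cells (13.5 to 32.2 CPM). Lymphoid-like cells (1273 cells) had 101, 41.5 and 26.5 CPM against 2.75, 1.37 and 0.832 CPM in all other cells, with no overlap. Lymphoid-like cells were higher by a log2 fold change of 3.92 ± 0.32 (adjusted p = 3.93e-32), and the call held under all 14 alternatives. All 4 members tested were called in lymphoid-like cells, *Car2* higher and *Car6*, *Car12* and *Car13* lower, where 46.5% of 11921 genes were called, 9.98% higher and 36.5% lower. After thinning, 6.91, 4.41 and 4.28% of lymphoid-like cells had a *Car2* UMI, against 0.0680, 0 and 0.181% of macrophage-like cells (the 0 allows up to 0.451%). The median depth of lymphoid-like cells before thinning was 2359, 1352 and 1044 UMIs, below that of macrophage-like cells.

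Most of this *Car2* lay in 1 of the lymphoid-like clusters. The cluster led by *Klra8*, *Klra4*, *Xcl1* and *Gzmc*, genes known from natural killer cells and related lymphocytes, had 283, 121 and 92.4 CPM. Its 351 cells were 27.6% of the class and held 82.4% of its *Car2* UMIs. The rest of the lymphoid-like cells had 23.4, 20.9 and 3.25 CPM. In thinned cells of the cluster, 21.3, 14.9 and 11.9% had a *Car2* UMI. It was chosen for its *Car2* values, which are given with no test. The genes most like *Car2* over all classes were *Klra4* (r = 0.75), *Ltb* (0.75) and *Klrd1* (0.75).

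Within the epithelium, *Car2* was found in *Ltf*-type cells at 32.2, 28.5 and 13.5 CPM, against 1.18, 0.159 and 0.0859 CPM in the other epithelial cells. The log2 fold change was 4.61 ± 0.36 (adjusted p = 0.000192), held in all 14 alternatives. Of 5 members tested against other epithelial cells, *Car2* and *Car12* were called, both higher, where 13.4% of 11152 genes were called, 6.15% higher and 7.29% lower. *Car2* was the member that set *Ltf*-type cells farthest apart from duct-like cells, which had 0.489, 1.74 and 0 CPM (3 UMIs in all; log2 fold change 6.41 ± 0.54, adjusted p = 6.19e-08). Duct-like cells were lower than other epithelial cells (-4.40 ± 0.73, adjusted p = 0.000166), a call that was lost without the female library (adjusted p = 0.181).

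The *Ltf*-type class was not uniform. A cluster of 232 cells led by *Dmbt1* and *Fcgbp*, which encode a scavenger receptor protein and a mucus protein, had 92.7, 95.2 and 34.3 CPM of *Car2*, 229, 193 and 114 CPM of *Car12*, 25.6, 19.0 and 16.0 CPM of *Car13* and 13.8, 10.9 and 4.57 CPM of *Car8*. Its summed UMIs thus held 4 members, and its *Car12* was within the range of duct-like cells. Of its 232 thinned cells, 18 had a *Car2*, 41 a *Car12*, 3 a *Car13* and 2 a *Car8* UMI. Whether single cells carried them together was not counted. The *Sftpd* and *Pglyrp1* cluster carried most of the *Car6* and had a *Car2* UMI in 3 of 597 thinned cells. *Car6* in the *Dmbt1* and *Fcgbp* cluster stood at 430, 1526 and 219 CPM. Both *Ltf*-type clusters were singled out after their values were seen, with no test. *Aldh1a1*, which the study uses to split the *Ltf*+ cells, had a UMI in only 2, 14 and 5 thinned cells, too few for a test.

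*Car2* was lower than in all other cells in fibroblast-like (1.11, 0 and 0 CPM; -4.24 ± 0.55, adjusted p = 0.000178) and macrophage-like cells (0.505, 0 and 0.659 CPM; -4.21 ± 0.64, adjusted p = 0.000461). In endothelial-like cells it did not pass (-0.03 ± 0.46, adjusted p = 0.968) but was higher with total UMIs (1.41, adjusted p = 0.0150), with 33 UMIs in capillary-like cells at 15.0, 0 and 13.6 CPM. In macrophage-like cells, all 4 members tested were called lower, where 50.1% of 12443 genes were called, 16.9% higher and 33.2% lower. Of 4 tested in mural-like cells, *Car6* and *Car12* were called, both lower, where 11.1% of 11311 genes were called, 6.38% higher and 4.68% lower.

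*Car4*, an enzyme anchored to the outer cell surface and known from capillary beds, was nearly confined to capillary-like cells (1254 cells), which held 96 of its 104 UMIs. The levels were 44.4, 13.5 and 10.2 CPM (86, 7 and 3 UMIs). In endothelial-like cells as a whole it was at 32.7, 9.75 and 4.92 CPM against 0.133, 0 and 0 CPM in all other cells. Endothelial-like cells were higher by a log2 fold change of 6.98 ± 0.62 (adjusted p = 1.66e-08), and the call held in the 13 alternatives that tested it. Of 5 members tested in endothelial-like cells, *Car4* was called higher, *Car6*, *Car12* and *Car13* lower, and *Car2* was not called, where 41.7% of 12381 genes were called, 14.4% higher and 27.4% lower.

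Venous-like cells, which line the vessels beyond the capillaries, had 1 *Car4* UMI in 411 cells and the other endothelial-like cells none in 112. Only *Car6* passed the filter on low counts in the comparison of capillary-like with the other endothelial-like cells and it was not called (0.01 ± 0.22, adjusted p = 0.987), where 15.2% of 3277 genes were called, 8.88% higher and 6.32% lower. Without that filter *Car4* was higher in capillary-like cells (log2 fold change 4.71 ± 0.83, adjusted p = 1.42e-06). After thinning, 4.17, 1.30 and 1.40% of capillary-like cells had a *Car4* UMI, against none of 1470, 665 and 554 macrophage-like cells, a count of 0 that allows up to 0.204, 0.451 and 0.542%. The median depth of capillary-like cells before thinning was 2618, 1366 and 1060 UMIs. At this depth most of them gave no *Car4* UMI, which does not show that they lack it. The genes most like *Car4* were *Btnl9* (r = 0.94), *Sema3g* (0.93) and *Akr1c14* (0.91).

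*Car8*, the member without catalytic activity, had its highest mean in fibroblast-like cells (2883 cells) at 14.0, 4.38 and 9.23 CPM (76, 5 and 7 UMIs), against 1.02, 0.247 and 0.0494 CPM in all other cells. The arms did not overlap. The log2 fold change was 2.89 ± 0.58 (adjusted p = 0.00294), and the call held in all 14 alternatives. All 5 members tested were called in fibroblast-like cells, with *Car8* higher and *Car6*, *Car2*, *Car12* and *Car13* lower, where 41.9% of 12755 genes were called, 17.1% higher and 24.8% lower.

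Nearly all *Car8* of the class lay in a cluster of 194 cells led by *Pi16*, *Fn1*, *Smpd3* and *Mfap5*, of which *Pi16* is known from adventitial fibroblasts. It had 163, 75.6 and 79.5 CPM and held 82 of the 88 UMIs (93.2%) in 6.73% of the cells. The rest of the fibroblast-like cells had 1.20, 0 and 0 CPM. In thinned cells, 12.6, 12.1 and 9.76% of the cluster had a *Car8* UMI. The cluster was chosen for these values, which carry no test. Elsewhere *Ltf*-type cells had 4.86, 4.99 and 1.35 CPM, which did not pass against other epithelial cells (2.94 ± 0.93, adjusted p = 0.0734) but did in 5 of 13 alternatives, total UMIs among them (4.67, adjusted p = 3.17e-05). Duct-like cells had 32 *Car8* UMIs, all in the female library (7.82, 0 and 0 CPM). They were tested against other epithelial cells only without the count filter, and did not pass (1.58 ± 0.75, adjusted p = 0.111). The 5 to 8 mast-like cells per library had 2 *Car8* UMIs, both in male library 1. Without the mast-like cells the genes most like *Car8* were *Dclk1* (r = 0.86), *Ahnak2* (0.85) and *P4ha2* (0.83) over 39 sums.

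**Figure D5:**
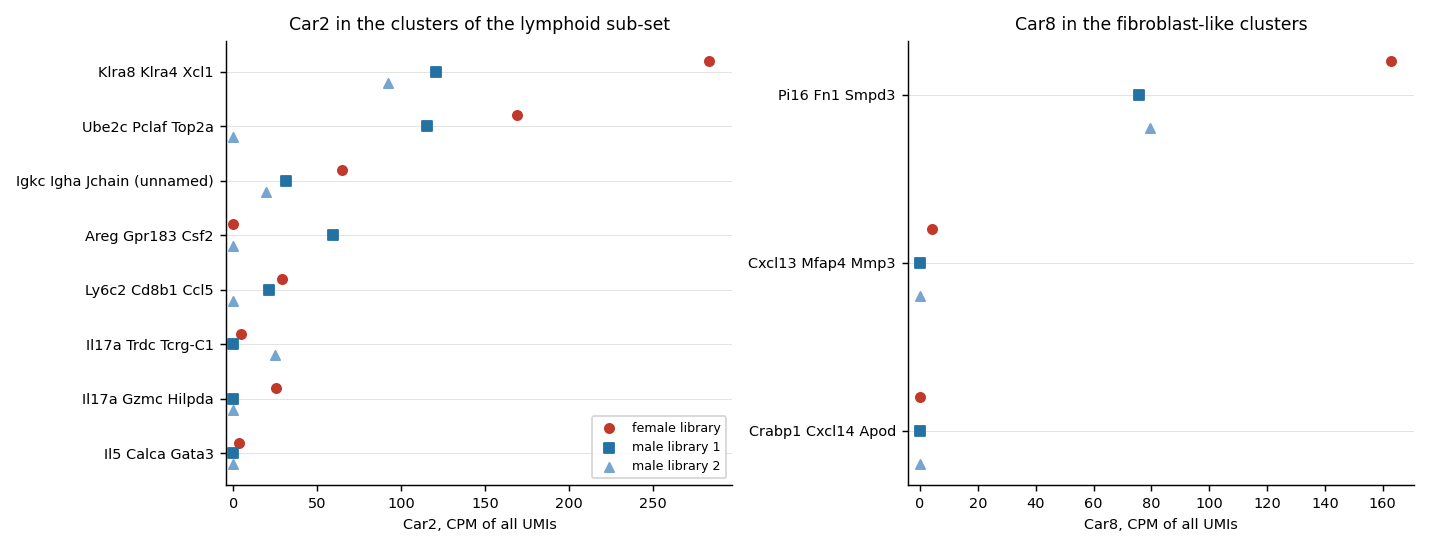
*Car2* level in the clusters of the lymphoid sub-set (left) and *Car8* level in the fibroblast-like clusters (right), as CPM of all UMIs (x axis), with 1 point per library and clusters named by their leading genes (y axis). *Car2* is at 92.4 to 283 CPM in the *Klra8* cluster and *Car8* at 75.6 to 163 CPM in the *Pi16* cluster.

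Of the other 10 carbonic anhydrase genes, *Car5b*, a mitochondrial enzyme, gave 360 UMIs spread over most classes, and the rest gave 45 or fewer. *Car7* (45 UMIs) was higher in endothelial-like cells (log2 fold change 3.44 ± 0.76, adjusted p = 0.000998), *Car11* (43 UMIs, 39 of them in fibroblast-like cells) in fibroblast-like cells (5.12 ± 0.78, adjusted p = 0.000521) and *Car9* (35 UMIs, 29 in macrophage-like cells) in macrophage-like cells (4.84 ± 0.83, adjusted p = 0.000917). Most UMIs of these called genes came from the female library. By library there were 38, 3 and 4 for *Car7*, 39, 1 and 3 for *Car11*, and 30, 2 and 3 for *Car9*. *Car15* gave 40 UMIs, *Car14* 5 and *Car5a* 4, and *Car10* gave none.

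A list of 33 genes for acid, bicarbonate and chloride transport was counted beside the members, since carbonic anhydrases work with such transporters. In *Kcnn4*-type acinar-like cells, 4 of the 11 tested were higher and none lower, with a median log2 fold change of 0.50 against 0.06 over all genes, of which 3.36% were higher. They were *Slc12a2*, the sodium, potassium and chloride cotransporter (4.38 ± 0.36, adjusted p = 5.08e-08), *Atp1b1*, a sodium pump subunit (4.54 ± 0.28, adjusted p = 7.43e-10), the calcium-activated chloride channel gene *Ano1* (1.88 ± 0.33, adjusted p = 0.000954), and *Kcnn4*, which helped to name the class. In *Ltf*-type cells 7 of 17 tested were higher and none lower than in other epithelial cells (median 0.54 against -0.07 over all genes, of which 6.15% were higher). These included *Slc12a2* (3.56 ± 0.30, adjusted p = 0.000267), *Ano1* (2.83 ± 0.20, adjusted p = 0.000129) and *Atp6v1b1*, a proton pump subunit (7.11 ± 0.58, adjusted p = 0.000230).

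Duct-like cells, with the most *Car12*, had 2 of 13 transport genes higher, among them *Atp1b1* (2.28 ± 0.16, adjusted p = 3.40e-08), and 4 lower, among them *Slc12a2* (-3.14 ± 0.25, adjusted p = 8.98e-08). That share was near the 15.9% higher and 20.7% lower of all genes, and the median was -0.03 against -0.06. In mature acinar-like cells 2 of 16 were higher and 9 lower, with a median of -0.73 against -0.10 over all genes, of which 21.9% were higher and 28.1% lower. By CPM of all UMIs the 2 higher genes went the other way. *Slc9a3r1* was at 13.7 against 29.1 CPM and *Slc9a7* at 0.727 against 0.853 CPM. In the other classes between 0 and 2 listed genes were higher and between 0 and 8 lower. All counts of listed genes follow the fit, and CPM of all UMIs went the other way for some. An example is *Slc9a3r1* in duct-like cells, called lower at 20.8 against 15.6 CPM.

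Levels in the female library were set beside those of the male libraries as values, since there was 1 female library and no test of sex is possible. Over 57 pairs of a class and a member with UMIs, the exact 95% Poisson interval of the female level, which covers counting error only, lay above those of both male libraries in 15 and below both in 0. With tear-product UMIs left out of the totals, it lay above in 5. The 5 were *Car6* in mature acinar-like, *Kcnn4*-type, *Ltf*-type and capillary-like cells, at 1.73, 2.30, 1.53 and 1.46 times the male mean, and *Car2* in mature acinar-like cells at 6.80 times. The *Car2* ratio rests on 19, 2 and 2 UMIs (0.646, 0.0690 and 0.0627 CPM of all UMIs). Uncalled barcodes of more than 500 and up to 2000 UMIs had more *Car2*, at 1.51, 0.336 and 0.247 CPM. Their *Car6*, at 1522, 811 and 609 CPM, was also highest in the female library and lay above that of mature acinar-like cells. *Car6* in capillary-like cells is not read as expression, and the part of free RNA in these ratios was not tested. The clusters that make up these classes differed between the libraries. Within the *Chia1* and *Amy1* cluster, which gave most *Kcnn4*-type UMIs only in the female library, the female *Car6* level was 1.27 times the male mean. A cluster led by *Klk1* and *Wfdc12* was 28.4% of mature acinar-like cells in the female library and 5.57 and 6.06% in the male libraries. Its share of the UMIs of the class, which sets its weight in the CPM, went the other way, at 1.82, 6.76 and 7.91%. Tear-product UMIs made up 24.9% of fibroblast-like UMIs in the female library and 46.1 and 50.9% in the male libraries, and their part in these differences was not tested.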

How the data were processed

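The deposited values were UMI counts per gene and barcode on the mm10 build, made by the authors with Cell Ranger 6.1.2 per the submitters' processing notes. One set of headers names another version, and the annotation release is not given in the sources used here. Counts precede the authors' DecontX correction and doublet removal. Barcodes passed with over 500 UMIs, over 200 genes and less than 15% mitochondrial UMIs, and the highest scrublet scores (scanpy 1.11.5) were removed at 0.8% per 1000 barcodes, 646, 287 and 315 cells. This left 7652, 5295 and 5397 of 9737, 6422 and 6899 called barcodes. The study, with its own correction and doublet callers, kept another number, and its cell names were rebuilt here.

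Cells were normalized with sctransform 0.4.2 and integrated in Seurat 5.3.0 (R 4.3.3) on 3000 features and 30 dimensions, then clustered at resolution 1, with carbonic anhydrase, tear-product and sex-linked genes left out of the features. Thresholds for naming clusters were set after the clusters had been seen, and the members and lists were chosen with earlier results of these data known. UMIs summed per library and arm were tested with edgeR 4.0.16 (filterByExpr, glmQLFit, glmQLFTest) with the library as a block, since both arms come from 1 suspension. Their deviations from the arm means correlated at 0.057 to 0.676, below 0.1 only for the male libraries in the mural-like comparison. TMM factors were computed from genes expected to give at least 10 UMIs in the smallest sum, because factors from all genes were biased by small arms in simulated data. In simulated data for the duct-like comparison with 11857 genes, 14.9% of 2-fold, 80.6% of 4-fold and 98.5% of 8-fold changes were recovered.

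Tear-product genes were the secretoglobin, odorant-binding, major urinary, exocrine gland-secreted, lipocalin (without *Lcn2*), BPI fold, SMR3, *Sval* and *Mucl* families with *Pip*, *Lpo* and *Gm1553*. Named genes were the members, the remaining family, up to 4 called genes of the transport list (1 of them is not reported here), and the 3 genes with the highest Pearson correlation to a member on log2(CPM + 10) centered within libraries, among genes of at least 20 CPM in a class. Intervals (exact Poisson or Clopper-Pearson, 95%) and floors of 3 counts cover counting error only. Alternatives were DESeq2 1.42.0, total UMIs with and without tear-product genes, no count filter, no block, each library left out, cell filters, doublet rate, free RNA subtracted, resolution 0.5 and no integration. The barcodes of more than 500 and up to 2000 UMIs and the correlations without mast-like cells were chosen after seeing the data.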

Additional observations from a re-analysis of the deposited data

Results flagged for a closer look

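In 4 comparisons the difference in CPM between a class and the rest had one sign in the female library and the other in both male libraries, which was not tested because there was 1 female library. *Car6* in *Tfrc*-type cells differed from other acinar-like cells by -1350 CPM in the female library and was higher in the male libraries. *Car6* in lymphoid-like cells differed from all other cells by -527 CPM, *Car12* in MEC-like cells from other epithelial cells by -0.12 CPM, and *Car13* in macrophage-like cells from all other cells by -4.75 CPM in the female library, with the opposite sign in both male libraries.

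Called barcodes that the filters or the doublet scores left out also held the members. *Car6* gave 14952, 1841 and 1620 UMIs there (female library first, then both male libraries), or 1950, 620 and 478 CPM, and *Car2* gave 102, 8 and 4 UMIs. *Car12* gave 255, 8 and 19 UMIs, and *Car13* gave 47, 4 and 3. *Car8* gave 28, 1 and 0, and *Car4* gave 13 in the female library.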

How the results depend on the processing

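Of 39 called differences of the members, 23 kept their direction and their side of the threshold in every alternative tried. Both counts include *Car6* in *Kcnn4*-type cells, which is given in the results as a description with no test. Over all tested differences, 574 of 652 alternative values kept both, 49 lost the call, 8 gained one and 21 turned sign. Depth limits *Car4*, *Car8*, *Car2* and *Car13* most, with 104 to 454 UMIs each. The causes of the changes below were not tested.

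The number of called members was 1 in *Tfrc*-type cells and 0 with total UMIs, without the replicate block, with a mitochondrial limit of 5% and without integration, with 0 to 1 when a library was left out (0 without the female library or male library 2). In *Ltf*-type against other epithelial cells it was 2, with 5 by total UMIs and 1 without the block, and against duct-like cells it was 4, with 2 at a doubled doublet rate. In MEC-like cells it was 3, with 1 by total UMIs and 1 without the block. In mural-like cells it was 2, with 0 by total UMIs, 0 without the block, 1 with a mitochondrial limit of 5%, 1 at a doubled doublet rate, and 1 (without the female library) to 2 when a library was left out. In endothelial-like cells it was 4, and 2 (without the female library) to 4 when a library was left out. In capillary-like cells it was 0, also 0 at an unadjusted p under 0.05 with edgeR and 0 with DESeq2, and 1 without the count filter. The comparison of capillary-like cells could not be fitted at resolution 0.5 or without integration, where no cluster took that name.

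Signs turned mostly near 0. *Car6* turned in *Tfrc*-type cells with total UMIs (0.02), and in *Ltf*-type against other epithelial cells without the block (-0.01), with free RNA subtracted (-0.33) and when a library was left out (-0.17 to 0.20). *Car6* in capillary-like cells turned with DESeq2 (-0.08), without the block (-0.03), with a mitochondrial limit of 5% (-0.14), more than 1000 UMIs per cell (-0.03), a doubled doublet rate (-0.11) and a library left out (-0.17 to 0.16). With total UMIs the sign turned for *Car2* (1.11) and *Car12* (0.87) in MEC-like cells and for *Car13* in fibroblast-like cells (0.47). *Car2* in endothelial-like cells turned with DESeq2 (0.09), total UMIs (1.41, called at adjusted p = 0.0150), total UMIs without tear-product genes (0.51), no block (0.15), a doubled doublet rate (0.03) and a library left out (-0.51 to 0.29).

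Without the replicate block, which pairs the arms of 1 suspension, 13 differences changed their call or sign. Beside those given above and in the results, the adjusted p became 0.0675 for *Car6* in *Tfrc*-type, 0.0502 for *Car6* and 0.164 for *Car12* in mural-like, 0.0664 for *Car12* in *Ltf*-type against duct-like, 0.111 for *Car12* in MEC-like, 0.267 for *Car13* in fibroblast-like, 0.0660 for *Car13* in lymphoid-like and 0.0723 for *Car13* in macrophage-like cells. No paired analysis was possible between the female and male libraries because there is 1 female library and each library is a pool of other mice.

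Scaling changed the split of all called genes. The share that was higher lay between 21.5 and 81.1% across comparisons, between 0.3 and 99.6% with total UMIs and between 7.5 and 90.3% with total UMIs without tear-product genes. All called genes numbered 5606 in mature acinar-like cells (10332 with total UMIs), 355 in *Kcnn4*-type (194 with DESeq2, 552 without the filter, 76 without the block, 541 without integration), 3219 in *Tfrc*-type (1865 with DESeq2, 968 without the female library, 1988 without male library 2), 3979 in duct-like (9759 with total UMIs) and 1499 in *Ltf*-type cells (6132 with total UMIs, 2320 without the filter, 495 without the block, 803 with a mitochondrial limit of 5%, 965 to 3776 with a library left out). They numbered 2216 in *Ltf*-type against duct-like (1130 with DESeq2, 1187 with total UMIs, 697 at a doubled doublet rate), 3440 in MEC-like (9063 with total UMIs), 5347 in fibroblast-like (9788), 5165 in endothelial-like (7867), 1251 in mural-like (545 without the block, 285 to 823 with a library left out), 5547 in lymphoid-like (2805 with DESeq2, 3500 without the block, 2326 without the female library) and 498 in capillary-like cells (222 with DESeq2, 204 without the block, 254 without the female library).

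The class with the highest thinned share of cells was that of the highest CPM for 6 of 6 members, and for 3 of 6 without thinning. The count of 15 class and member pairs with a higher female interval became 5 without tear-product genes. *Car6* in free RNA moved from 853, 1476 and 1435 CPM in barcodes of 10 to 100 UMIs to 1522, 811 and 609 CPM in those of more than 500 and up to 2000 UMIs, and the ratio of the *Ltf*-type level to the estimate was 3.55, 2.87 and 1.15 with the former and 2.25, 5.67 and 2.93 with the latter.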

Other observations

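Some values lie in clusters that were given no name. A cluster of 98 cells led by *Ccl22*, *Ccr7* and *Fscn1*, genes known from migratory dendritic cells, had 12.3 to 34.0 CPM of *Car13* (5 UMIs) and of *Car2* (4 UMIs), at counts too small to rank it beside the named classes. A cluster of 248 cells led by *Igkc*, *Igha* and *Jchain*, known from plasma cells, had 19.7 to 64.7 CPM of *Car2* (13 UMIs). These clusters were singled out after their values were seen, and no test was made.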
